A study of Mus musculus with 36 samples.

Results

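The skeletal muscle acetylcholine receptor is described here through 7 genes of a gene-level RNA-seq table with 54347 genes. They are the receptor subunits Chrna1, Chrnb1, Chrnd, Chrne and Chrng, the receptor tyrosine kinase Musk, and the scaffold gene Rapsn. The members were chosen by gene symbol, and each matched exactly 1 Ensembl identifier in the table. All 7 passed the filter on low counts that left 15340 genes for testing, and Chrna1, Chrnd, Chrne, Chrng and Musk passed it through the myotube libraries. Chrnb1 also exceeded 1 CPM in all 9 adipocyte and all 9 hepatocyte libraries, and Rapsn in all 9 macrophage libraries.

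The series holds 36 libraries from primary cells of male mice, labelled C57Bl/6 throughout. The study's methods name the hepatocyte donors C57BL/6NHsd, so for hepatocytes the substrain and the cell type cannot be told apart. Myotubes came from hindlimb muscle, were cleared of part of their fibroblasts by preplating, and were kept in differentiation medium before treatment. Adipocytes were obtained by differentiating stromal cells of inguinal fat from several mice, macrophages were grown from bone marrow, and hepatocytes were obtained by collagenase perfusion of the liver. Each cell type was exposed for 6 h to PBS (control), to 5 mM (R)-(-)-3-hydroxybutyrate (bOHB), or to 5 mM butyrate, with 3 libraries in each of the 12 groups. The 3 treatments of a cell type shared its strain and its medium. Per the study's methods the treatment medium was DMEM with serum for adipocytes and macrophages, differentiation medium for myotubes and Williams E for hepatocytes. Between myotubes and each other cell type, medium and cell type cannot be told apart. The labels do not say that replicates came from separate cultures or animals, so the p-values measure the spread between these libraries, which may be technical. bOHB is the most abundant circulating ketone body. Butyrate, a fatty acid made by gut bacteria, inhibits histone deacetylases. The 2 molecules share a carbon backbone, and bOHB carries a hydroxyl group that butyrate lacks.

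The muscle receptor is a pentameric, acetylcholine-gated cation channel that starts contraction at the neuromuscular junction. It is built from a pair of alpha subunits with 1 beta and 1 delta subunit, and with a gamma subunit in fetal or denervated muscle that is replaced by epsilon in innervated adult muscle. Agrin released by the motor nerve binds Lrp4 and activates Musk, the adaptor Dok7 sustains that activation, and rapsyn, the product of Rapsn, anchors receptors in clusters beneath the nerve terminal. Transcription of these genes is driven by myogenic E-box factors such as Myod1 and Myog, is repressed by electrical activity, and is favoured under the nerve by neuregulin signalling to factors that bind the N-box.

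The upstream sequences of the genes are shown because the E-box and the N-box are the elements through which those factors act, and transcripts of both groups of factors were measured in the same libraries. RefSeq (GRCm38.p6) gave a promoter entry for 5 of the 7 genes, which leaves out Chrnd and Rapsn. The windows searched were the 250 bases before each RefSeq start. The stretches printed below leave out bases that the GENCODE annotation places in an exon. They are chr2:73580339-73580588 on the minus strand for Chrna1, chr1:87205561-87205809 on the plus strand for Chrng, chr4:58285712-58285959 on the plus strand for Musk, chr11:69795944-69796067 on the minus strand for Chrnb1, and chr11:70619217-70619444 on the minus strand for Chrne. The stretch of Chrng ends just before its full-length transcript begins, and it lies in the first intron of a shorter GENCODE transcript that starts farther upstream. Each stretch is written 5′ to 3′ on the strand of its gene. Capitals mark words found on either strand. They are the palindromic E-box word CAGCTG, a further E-box word that reads CAGGTG on its forward strand, and the N-box word, which reads CCGGAA on its forward strand.
Chrna1: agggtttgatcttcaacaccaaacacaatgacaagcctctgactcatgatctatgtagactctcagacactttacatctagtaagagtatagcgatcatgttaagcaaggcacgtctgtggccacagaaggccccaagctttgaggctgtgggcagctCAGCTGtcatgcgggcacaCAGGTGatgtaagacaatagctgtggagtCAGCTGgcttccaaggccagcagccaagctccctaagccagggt
Chrng: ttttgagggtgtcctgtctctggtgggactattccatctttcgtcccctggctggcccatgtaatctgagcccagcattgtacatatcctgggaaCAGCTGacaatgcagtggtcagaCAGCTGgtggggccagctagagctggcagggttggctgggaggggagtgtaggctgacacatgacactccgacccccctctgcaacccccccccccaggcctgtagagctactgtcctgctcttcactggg
Musk: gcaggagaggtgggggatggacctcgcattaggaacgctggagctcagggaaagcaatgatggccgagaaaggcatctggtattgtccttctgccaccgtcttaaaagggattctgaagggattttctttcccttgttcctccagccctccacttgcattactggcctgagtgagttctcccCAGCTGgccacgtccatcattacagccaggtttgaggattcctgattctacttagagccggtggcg
Chrnb1: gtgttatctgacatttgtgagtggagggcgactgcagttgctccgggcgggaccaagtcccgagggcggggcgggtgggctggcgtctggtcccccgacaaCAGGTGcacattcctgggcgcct
Chrne: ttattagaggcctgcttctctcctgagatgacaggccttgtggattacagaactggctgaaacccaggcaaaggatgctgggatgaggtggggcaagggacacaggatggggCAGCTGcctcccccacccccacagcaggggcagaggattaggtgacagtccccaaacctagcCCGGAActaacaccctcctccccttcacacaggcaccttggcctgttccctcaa

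The word CAGCTG occurred at 2 places in the window of Chrna1, 92 and 44 bases before the start, with CAGGTG between them at 73 bases. In the window of Chrng it also occurred at 2 places, 155 and 132 bases before the start. The windows of Musk and Chrne held 1 CAGCTG each, at 68 and 138 bases. The window of Chrnb1 held no CAGCTG and 1 CAGGTG, at 29 bases. Over all 32851 RefSeq promoter windows of the same length, 13.0% held at least 1 CAGCTG, 1.26% held 2 or more, and 17.2% held CAGGTG on either strand. Among the 5 genes the N-box word was found in the window of Chrne alone, 76 bases before the start, against 12.0% of all windows. The general E-box form CANNTG, which includes the words above, was found in all 5 windows and in 66.2% of all windows. These are matches of letters and not measured binding sites.

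All 7 genes lie on autosomes of GRCm38, and their positions here are those of the GENCODE annotation. Chrnd (chr1:87190607-87200070) and Chrng (chr1:87204657-87212694) are neighbours on the plus strand of chromosome 1. Chrna1 (chr2:73563215-73580338, minus strand) and Rapsn (chr2:91035620-91045729, plus strand) are on chromosome 2, and Musk (chr4:58285960-58374303, plus strand) is on chromosome 4. Chrnb1 (chr11:69784036-69795943) and Chrne (chr11:70614883-70619216) are on the minus strand of chromosome 11. Whether the counting used strand is not given in the sources used here, so reads of overlapping genes on opposite strands cannot be told apart. Rapsn overlaps the antisense transcript Gm13778, with which it shares 4 exonic bases and which had at most 6 counts in any myotube library. The gene 4930544D05Rik lies inside Chrne on the other strand, shares no exonic base with it, and had at most 1 count in any library.

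The depth was even, with 18366289 to 23221473 estimated counts per library. The myotube libraries expressed all of 10 myotube markers (Acta1, Actn2, Casq2, Ckm, Des, Mylpf, Myh3, Myh8, Tnnt3 and Ttn), with a summed level of 31420 to 38140 CPM (reads scaled to TMM-adjusted library size) in controls, 38730 to 42570 under bOHB and 22720 to 30580 under butyrate. Other cell types left signal in the same libraries. The 10 macrophage markers summed to 163 to 445 CPM in controls, 58.0 to 157 under bOHB and 20.5 to 106 under butyrate, and all 10 were called lower under each compound. For bOHB, 0 of the 10 were called in a fit of the 9 myotube libraries alone, where edgeR called 0 of all 15340 genes, and 8 to 10 with single libraries left out. DESeq2 and limma-voom on all 36 libraries each called 10. The 5 hepatocyte markers (Alb, Apoa1, Cyp3a11, Serpina1b and Ttr) were at or near 0 in the controls and in 2 of the bOHB libraries, at 24.3 CPM in bOHB replicate 3, and at 31.5, 570 and 132 CPM under butyrate, with all 5 called higher. The largest of these sums is 1.47% of the hepatocyte control mean, and the largest macrophage sum is 2.26% of the macrophage control mean. Under butyrate 4 of 5 tested Schwann cell markers were called lower, with sums of 34.5 to 48.1 CPM in controls and 18.4 to 33.2 under butyrate. Of the markers of proliferating cells, 4 of 5 were called lower (35.6 to 77.1 CPM and 16.8 to 22.4), and 2 of 5 were called lower under bOHB (22.0 to 27.0 CPM). All 4 tested neuron markers were called higher (33.7 to 37.0 CPM and 48.1 to 70.0), and so were 2 of 8 fibroblast markers (1985 to 2320 CPM and 1952 to 2761). Butyrate also raised neuron markers in adipocytes (3 of 4), macrophages (2 of 4) and hepatocytes (1 of 4). In macrophages it lowered 4 of 10 macrophage markers and 4 of 5 markers of proliferating cells. Of the latter, 3 of 5 rose in hepatocytes and 1 of 5 in adipocytes. Such calls were thus not particular to the myotube libraries. In the butyrate myotubes, 4 of 5 myoblast markers were called lower and 1 higher, and 2 of 5 endothelial markers lower and 1 higher. Of 5 adipocyte markers 1 was called higher there, with adipocyte sums below 2 CPM. All these counts in butyrate myotubes stand beside 33.4% of all genes called lower and 33.1% called higher, and several are near those shares. In the bOHB myotubes 1 endothelial marker was called lower, and 1 fibroblast and 1 hepatocyte marker were called higher, against 2.91% of all genes called. No marker of myotubes, myoblasts, Schwann cells, neurons or adipocytes was called there by edgeR. Replicate 3 of the butyrate myotubes stood apart from replicates 1 and 2, with a chi-square of their counts per gene of 36.9 and 41.7 against 8.57 between replicates 1 and 2, and results without it are given beside the members. The part of these signals in the results below was not tested, and the members' own levels in macrophages and hepatocytes are given further on.

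In untreated myotubes the transcript of the fetal gamma subunit far exceeded that of the adult epsilon subunit, and the alpha subunit was the most abundant of the 7. Transcript levels of different genes were compared per kilobase of merged exon, as CPM per kb. Chrna1, whose product binds acetylcholine, was highest at 471 ± 21.7 CPM per kb (SD, n = 3). Chrng, the fetal subunit, stood at 90.6 ± 6.21 CPM per kb, Chrnd at 84.3 ± 4.01 and Chrnb1 at 63.1 ± 3.55. Musk followed at 36.5 ± 2.72 CPM per kb and Rapsn at 32.5 ± 0.674, and Chrne, the adult subunit, was lowest at 2.14 ± 0.473. In this order Chrng and Chrnd had overlapping ranges of 83.6 to 95.6 and 79.8 to 87.6, and the lowest Musk and the highest Rapsn library were both at 33.3 CPM per kb. The other neighbours in the order did not overlap. With the longest coding transcript in place of the merged exons, a length chosen after seeing the data, Chrng was at 136 ± 9.31 CPM per kb and Chrnd at 94.0 ± 4.47, and their ranges no longer overlapped.

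Chrna1 exceeded Chrng 5.20-fold, Chrnd 5.59-fold and Chrnb1 7.47-fold on the per-kilobase scale in controls. The ratio of Chrng to Chrne per kilobase was 49.7, 43.9 and 36.4 in the 3 control libraries. It was 38.2, 52.0 and 38.9 under bOHB and 43.2, 41.7 and 41.7 under butyrate, and the 3 groups overlapped.

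Butyrate lowered 6 of the 7 genes in myotubes, at a Benjamini-Hochberg adjusted p below 0.05 in edgeR's quasi-likelihood test. In the same comparison 33.4% of all 15340 genes were called lower and 66.5% were called in either direction, and 64.8% did not overlap between the control and butyrate libraries. Musk and Rapsn fell most, the alpha, delta and beta subunits fell less, and the gamma subunit fell least. The median log2 fold change over the 7 genes was -0.48, against 0 over all genes tested. All 7 estimates were below 0 under TMM scaling, under RLE scaling and with library totals alone. With library totals alone the median of all genes moved to 0.13. Without butyrate replicate 3, 5 of the 7 were called, with Musk at -1.38, Rapsn at -0.96 and Chrna1 at -0.52 (adjusted p = 1.57e-12, 4.6e-09 and 0.0151, edgeR). At an unadjusted p below 0.001 in edgeR, 4 of the 7 passed and Chrna1 and Chrng did not. In these bulk samples fewer myotubes and less RNA per myotube cannot be told apart.

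Musk, the receptor tyrosine kinase that agrin activates through Lrp4, had levels of 126, 143 and 144 CPM in the 3 control libraries. Under butyrate it had 54.5, 51.4 and 40.0 CPM, and under bOHB 146, 140 and 140 CPM. Every butyrate library lay far below every control and bOHB library. The difference from control was a log2 fold change of -1.50 ± 0.10 (SE), a 2.83-fold lower level (adjusted p = 6.04e-13, edgeR).

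Rapsn, which encodes the scaffold that binds the receptor from the cytoplasmic side, had 57.5, 58.4 and 59.9 CPM in controls. It had 31.3, 28.9 and 28.5 CPM under butyrate, and 54.2, 53.7 and 63.7 CPM under bOHB. The butyrate libraries were again separate from the rest. The log2 fold change was -0.99 ± 0.09 (1.98-fold lower, adjusted p = 3.79e-10, edgeR).

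Chrna1, the subunit with the main acetylcholine-binding surface, had 1958, 2134 and 2109 CPM in controls and 1485, 1390 and 1169 CPM under butyrate. Under bOHB it had 2244, 2142 and 2217 CPM. The butyrate libraries did not overlap with either other group. The log2 fold change was -0.62 ± 0.19, a 1.53-fold lower level (adjusted p = 0.00503, edgeR). Fitted on the 9 myotube libraries alone it was -0.59 (adjusted p = 0.000357), whereas DESeq2 on all 36 libraries gave -0.58 with an adjusted p of 0.255 and did not call it.

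Chrnd, the delta subunit, had 263, 281 and 288 CPM in controls, 209, 220 and 167 CPM under butyrate and 307, 288 and 297 CPM under bOHB. Butyrate libraries were lower than all others, with a log2 fold change of -0.48 ± 0.11 against control (adjusted p = 0.000276, edgeR). Chrnb1, the beta subunit to which rapsyn-dependent anchoring is linked, had 150, 160 and 168 CPM in controls, 133, 132 and 95.8 CPM under butyrate and 172, 168 and 168 CPM under bOHB. The butyrate group was lower than controls without overlap, at a log2 fold change of -0.41 ± 0.09 (adjusted p = 0.000283, edgeR). For both subunits replicate 3 of the butyrate group was the lowest library. Without it the log2 fold changes were -0.37 and -0.27, and both calls held.

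Chrng, the fetal gamma subunit, had 348, 385 and 398 CPM in controls, 333, 332 and 289 CPM under butyrate, and 418, 437 and 437 CPM under bOHB. The groups did not overlap, but the lowest control and the highest butyrate library were close. The log2 fold change under butyrate was -0.25 ± 0.10 (adjusted p = 0.0388, edgeR). The call was lost with RLE scaling (-0.21, adjusted p = 0.0696), with library totals alone (-0.11, adjusted p = 0.362), and without butyrate replicate 3 (-0.18, adjusted p = 0.12), control replicate 2 (-0.23, adjusted p = 0.0925) or control replicate 3 (-0.20, adjusted p = 0.123).

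Chrne, the adult epsilon subunit, was measured on few reads, with 62, 81 and 101 counts in controls, 77, 80 and 63 under butyrate and 97, 77 and 103 under bOHB. On the CPM scale controls were at 2.84 to 4.44, butyrate libraries at 2.81 to 3.23 and bOHB libraries at 3.42 to 4.56. The control and butyrate groups overlapped. The log2 fold change under butyrate was -0.24 with a 95% interval of -0.73 to 0.25 (adjusted p = 0.385, edgeR), so a difference was not detectable at this depth.

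**Figure D1:**
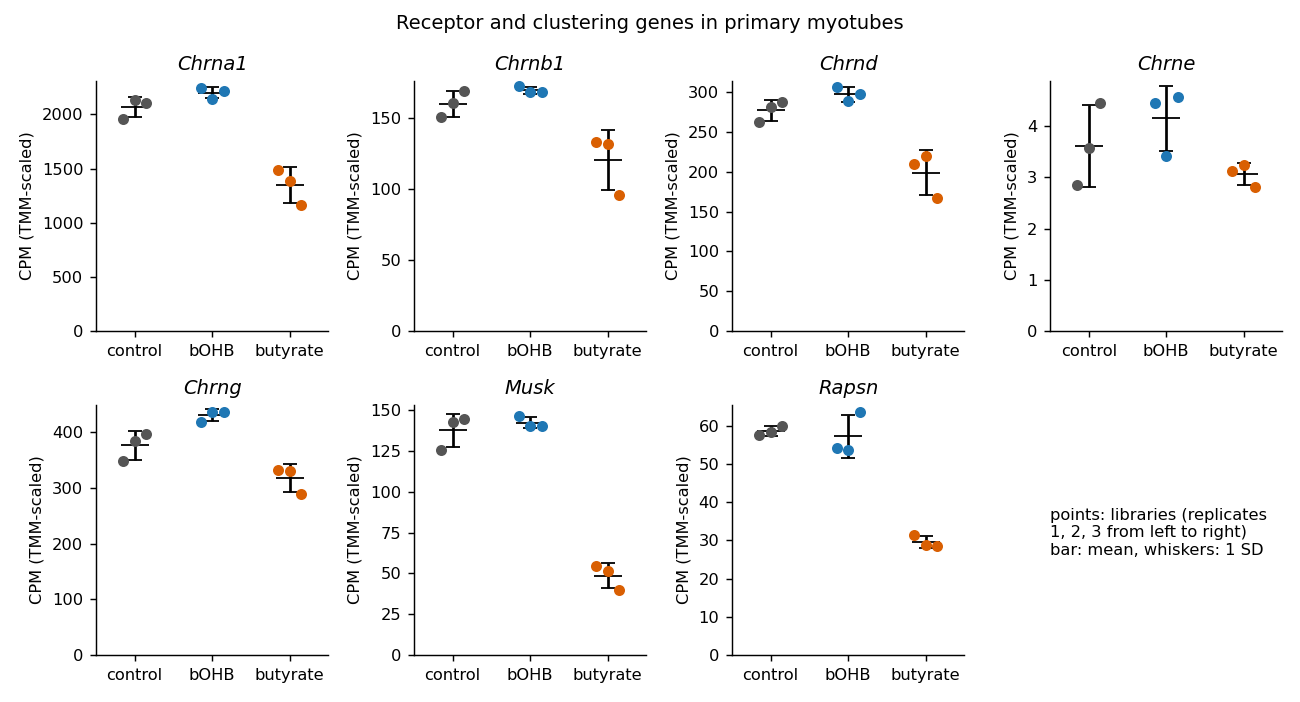
Level of each of the 7 genes in the 9 myotube libraries, in TMM-scaled CPM on axes that start at 0, by treatment. Points are libraries, the bar is the group mean and the whiskers are 1 SD (n = 3). Musk falls from 126 to 144 CPM in controls to 40.0 to 54.5 CPM under butyrate, and Rapsn from 57.5 to 59.9 CPM to 28.5 to 31.3 CPM.

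The fall differed in size among the 7 genes, and it was set beside the general muscle transcripts of the same libraries. Relative to the control mean, the summed myotube markers stood at 85.2%, 84.4% and 63.3% in butyrate replicates 1, 2 and 3. Of the 10 markers 2, Acta1 and Ckm, were called lower, against 33.4% of all genes. Musk stood at 39.6%, 37.4% and 29.1% in those libraries and Rapsn at 53.5%, 49.3% and 48.6%, each below the marker sum of its library. Chrna1 stood at 71.9%, 67.3% and 56.5%, also below the marker sum. Chrnb1 (83.3%, 82.4% and 60.0%), Chrnd (75.5%, 79.4% and 60.4%) and Chrng (88.3%, 87.9% and 76.7%) lay closer to it or above it.

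Expressed as a share of the summed marker counts, Musk was 0.400%, 0.374% and 0.379% in controls and 0.178%, 0.170% and 0.176% under butyrate. Rapsn was 0.183%, 0.153% and 0.157% in controls and 0.103%, 0.0953% and 0.125% under butyrate. Chrna1 was 6.23%, 5.60% and 5.53% in controls and 4.86%, 4.59% and 5.15% under butyrate. Chrnd was 0.8355%, 0.7367% and 0.7556% in controls and 0.6845%, 0.7263% and 0.7363% under butyrate, a very narrow gap. Musk, Rapsn, Chrna1 and Chrnd did not overlap between the groups, against 55.9% of all genes on this scale, 10.8% lower and 45.1% higher under butyrate. The shares of Chrnb1, Chrne and Chrng did overlap, and that of Chrng ran from 1.01% to 1.11% in controls and from 1.09% to 1.27% under butyrate. An edgeR fit of the 9 myotube libraries with the marker sum as library size, added after seeing the data, called 3 of the 7 genes lower, against 52.2% of all genes called in either direction: Musk at a log2 fold change of -1.14 (adjusted p = 4.33e-06), Rapsn at -0.61 (adjusted p = 0.00373) and Chrna1 at -0.25 (adjusted p = 0.0242). In that fit Chrng turned to 0.13 (adjusted p = 0.307), Chrne turned to 0.14 (adjusted p = 0.554), and Chrnb1 and Chrnd were at -0.05 and -0.12 (adjusted p = 0.647 and 0.302). The median of all genes in that fit was 0.38. For butyrate against bOHB it called 2 of the 7 genes lower, Musk and Rapsn, against 60.8% of all genes called.

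**Figure D2:**
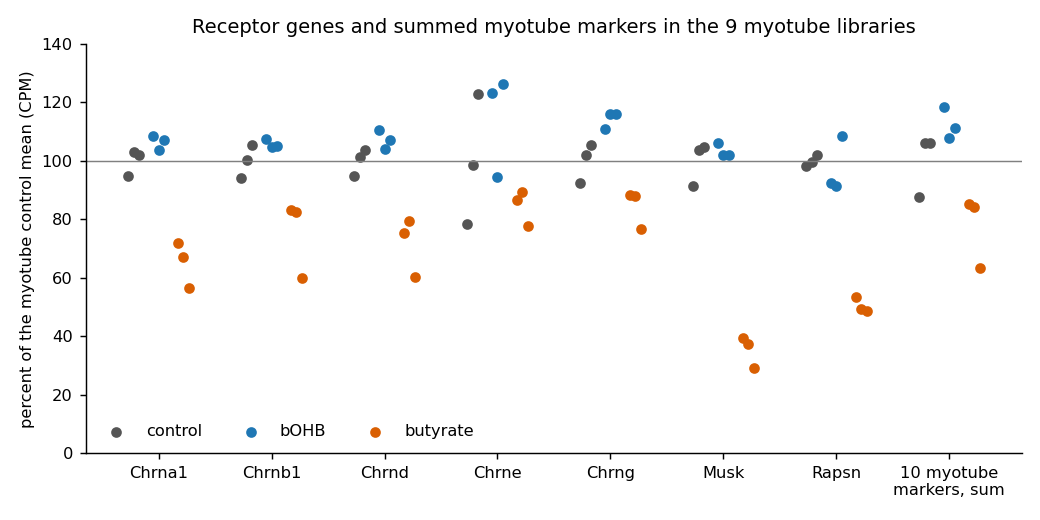
Level of each gene, and of the summed 10 myotube markers, as a percent of the mean of the 3 control libraries, in each of the 9 myotube libraries. Under butyrate Musk and Rapsn lie at 29.1% to 53.5% of control, below the marker sum of 63.3% to 85.2%, while Chrnb1 and Chrng lie near it or above it.

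Under bOHB, at the same dose and time, 0 of the 7 genes passed edgeR's quasi-likelihood test in myotubes, against 2.91% of all genes called. That share fell to 1.14% without control replicate 1, to 1.66% and 1.40% without bOHB replicates 1 and 2, and to 1.87% without control replicate 2, and was 0% in the fit of the 9 myotube libraries alone and with the marker sum as library size. At an unadjusted p below 0.05 the count was also 0, and DESeq2 and limma-voom called 0 as well. The median log2 fold change of the 7 genes was 0.09, against 0.02 over all genes. Chrng had the smallest unadjusted p, 0.0731, with a log2 fold change of 0.19 and a 95% interval of -0.02 to 0.41 (adjusted p = 0.423). All bOHB libraries lay above all control libraries for Chrng, Chrna1 and Chrnd, with log2 fold changes of 0.09 for Chrna1 and 0.10 for Chrnd that missed the test, and 22.9% of all genes did not overlap between these 2 groups. The summed myotube markers also stood higher in every bOHB library, at 108% to 119% of the control mean against 87.5% to 106% in controls. As a share of that sum Chrna1 averaged 5.45% under bOHB and 5.79% in controls, Chrnd 0.736% and 0.776%, and Chrng 1.07% and 1.05%, all with overlap. The share of Musk was 0.343%, 0.362% and 0.351% under bOHB, below every control without overlap, against 21.1% of all genes lower and 0.88% higher without overlap on this scale. In the fit with the marker sum as library size Chrna1 and Chrnd turned to -0.09 and -0.08 and Musk was at -0.13, and 0 of the 7 genes were called (adjusted p = 0.717, 0.733 and 0.717 for these 3, edgeR). In the fit of all 36 libraries with TMM scaling, the 95% intervals under bOHB were -0.16 to 0.25 for Musk and -0.22 to 0.15 for Rapsn. The changes of these 2 genes under butyrate in the same fit lie outside these intervals.

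The 2 compounds were compared directly at 5 mM and 6 h in all 4 cell types. In myotubes 6 of the 7 genes were lower under butyrate than under bOHB, against 32.9% of all genes called lower. The log2 differences, butyrate minus bOHB, were -1.55 ± 0.10 for Musk, -0.95 ± 0.09 for Rapsn, -0.71 ± 0.19 for Chrna1, -0.58 ± 0.11 for Chrnd, -0.49 ± 0.09 for Chrnb1 and -0.44 ± 0.10 for Chrng. Their adjusted p-values (edgeR) ran from 3.02e-13 for Musk to 0.0016 for Chrna1. For Chrne the difference was -0.44 with a 95% interval of -0.92 to 0.05 (adjusted p = 0.109), although its 3 butyrate libraries were all below the 3 bOHB libraries. Of all genes, 66.9% did not overlap between these 2 groups. DESeq2 called 5 of the 7, without Chrna1 (-0.65, adjusted p = 0.2), and limma-voom called all 7, with Chrne at -0.42 (adjusted p = 0.0417). This comparison and that of butyrate with control share the butyrate libraries.

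**Figure D3:**
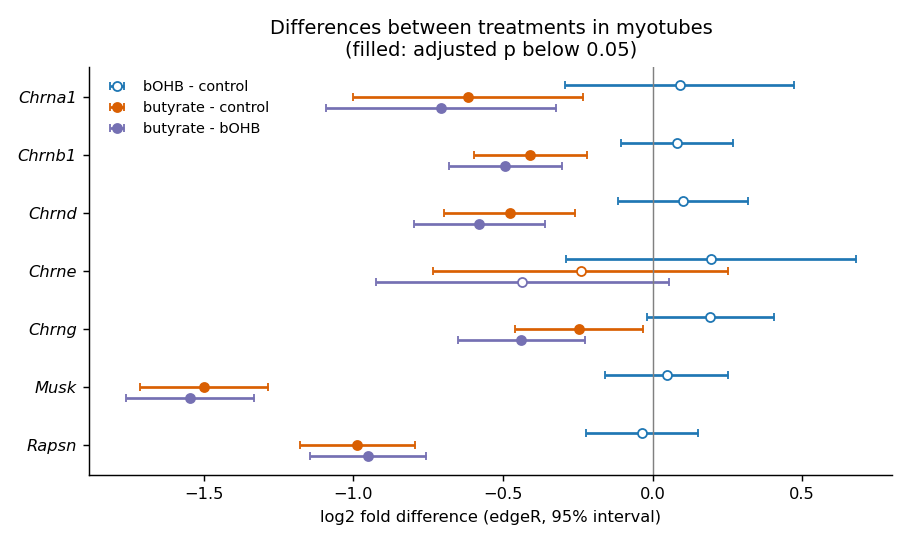
log2 fold differences with 95% intervals for the 7 genes in myotubes, from edgeR, for bOHB minus control, butyrate minus control and butyrate minus bOHB. Filled points passed an adjusted p of 0.05. The intervals of Musk and Rapsn for butyrate minus control end at or below -0.79, and all 7 intervals under bOHB include 0.

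The other genes of the pathway were taken from 5 lists with 86 genes in all, of which 84 were tested. Under butyrate 46 of them (54.8%) were lower and 17 (20.2%) were higher in myotubes, beside 33.4% and 33.1% of all genes. Under bOHB edgeR called 1 of 84, against 2.91% of all genes, and DESeq2 called 2.

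Among 21 genes of agrin-Musk signalling and receptor clustering, 13 fell and 2 rose under butyrate, with a median log2 fold change of -0.26. Dok7, the adaptor that activates Musk from inside the cell, fell from 62.5, 65.2 and 66.2 CPM to 17.4, 19.9 and 20.3 CPM, a log2 fold change of -1.75 ± 0.11 (adjusted p = 1.03e-14, edgeR). Lrp4, the agrin receptor, fell by 0.66 on the log2 scale (adjusted p = 5.55e-06, edgeR). Agrn, which encodes agrin and whose muscle form lacks most of the clustering activity of the nerve form, rose from 33.2, 36.7 and 32.3 CPM to 50.1, 43.7 and 52.4 CPM (0.52, adjusted p = 7.52e-05, edgeR). The kinases Src and Abl2, which act downstream of Musk, and Sorbs2, a scaffold protein of the actin cytoskeleton, fell by 1.25, 0.51 and 1.50, while the kinase Pak1 rose by 1.08. The kinase, co-receptor and adaptor of the agrin pathway had lower transcript levels under butyrate and its ligand a higher one. Under bOHB 0 of the 21 genes were called by edgeR, and 2 had an unadjusted p below 0.05.

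Among 22 genes of the synaptic matrix and the postsynaptic scaffold, 13 fell and 3 rose under butyrate. Ache, the acetylcholinesterase that ends transmission, fell from 29.1, 30.1 and 33.7 CPM to 20.3, 22.6 and 16.8 CPM (-0.63 ± 0.11, adjusted p = 1.44e-05, edgeR). Ache was also the 1 gene of the 5 lists that edgeR called under bOHB, where it rose to 40.4, 40.6 and 41.9 CPM (0.40 ± 0.11, adjusted p = 0.0387, edgeR), while butyrate lowered it. The bOHB call of Ache was lost in the fit of the 9 myotube libraries alone (0.38, adjusted p = 0.287), with the marker sum as library size (0.23, adjusted p = 0.717), with RLE scaling (adjusted p = 0.054), with library totals alone (adjusted p = 0.0849) and under filterByExpr (adjusted p = 0.0672). It was also lost without control replicate 1 (adjusted p = 0.274) or 2 (0.144) and without bOHB replicate 1 (0.116), 2 (0.129) or 3 (0.129), and its estimate stayed above 0 in all of these fits. Id2 was called under bOHB in its place with library totals alone, and beside it with DESeq2, without control replicate 3 and, together with Nid2, without a filter. Colq, the collagen tail that anchors acetylcholinesterase, fell by 0.37 (adjusted p = 0.024), and Utrn, the dystrophin homologue enriched at the junction, fell by 0.25 (adjusted p = 0.0301). Larger falls were seen for Scn4a, the muscle sodium channel (-1.33), for Col13a1, a transmembrane collagen of the synapse (-1.13), and for Sntb1, a syntrophin (-1.09). The 3 genes that rose were Lama5, a laminin chain (0.96), Sntb2, another syntrophin (0.69), and Dtnb, a dystrobrevin (0.63).

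Neuregulin signalling and N-box factors gave 6 lower and 2 higher genes of 9 tested. The neuregulin receptors Erbb2 and Erbb3 fell together, Erbb2 from 197, 222 and 217 CPM to 63.2, 64.1 and 49.8 CPM and Erbb3 from 267, 311 and 310 CPM to 88.1, 89.3 and 70.5 CPM. Both had a log2 fold change of -1.84 (adjusted p = 5.31e-18 and 2.21e-16, edgeR). The ligand gene Nrg1, which was low at 2.81 to 3.48 CPM in controls, rose by 0.62 (adjusted p = 0.00257). The N-box binding factor Gabpa fell by 0.55 (adjusted p = 3.04e-08), its partner Gabpb2 fell by 1.32, and the related factor Etv5 rose by 0.71. Prkar1a, a regulatory subunit of protein kinase A, fell by 0.71. Under bOHB 0 of 9 were called by edgeR, and 0 had an unadjusted p below 0.05. Chrne, whose window above held the N-box word, had a log2 fold change of -0.24 that did not pass the test.

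Among the E-box factors and the repressors coupled to muscle activity, 13 of 20 fell and 4 rose. Myod1 fell from 381, 432 and 407 CPM to 63.5, 69.4 and 67.6 CPM, a 6.08-fold lower level (-2.60 ± 0.11, adjusted p = 2.21e-18, edgeR). Myog, the myogenin gene, fell from 917, 981 and 1005 CPM to 329, 337 and 255 CPM (-1.65 ± 0.16, adjusted p = 1.97e-10, edgeR), and Myf6 fell by 1.13 (adjusted p = 4.85e-07). Their dimer partners Tcf12 and Tcf4 fell by 0.71 and 0.85, and Mef2d, a factor that acts with them, fell by 1.21. Hdac9, a class IIa histone deacetylase that represses receptor genes in active muscle, fell by 1.01 (adjusted p = 2.52e-08). Hdac4, a deacetylase of the same class that denervation induces, rose by 0.24 (adjusted p = 0.00315), Hdac5 rose by 0.26, and Snai1 and Id2, which oppose E-box factors, rose by 0.39 and 0.21. Dach2 did not pass the filter and was not tested. Under bOHB 0 of 20 were called by edgeR, and 3 had an unadjusted p below 0.05. Of the genes whose windows are printed above, Chrna1 and Chrng, with 2 CAGCTG words, fell by 0.62 and 0.25, Musk, with 1, fell by 1.50, Chrne, with 1, was at -0.24 and not called, and Chrnb1, with none, fell by 0.41. No relation between the words and the changes was tested.

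Of 12 genes for folding, assembly and glycosylation of the receptor, 6 rose, 1 fell and 5 were not called, beside 33.1% and 33.4% of all genes called higher and lower. Their median log2 fold change was 0.13, against 0 over all genes. Ric3, a chaperone of acetylcholine receptors of the neuronal type, rose by 1.79 on the log2 scale (adjusted p = 3.91e-06), from 0.366, 0.440 and 0.483 CPM in controls to 1.18, 1.01 and 2.37 CPM under butyrate, and Tmem35a, another such chaperone, rose by 1.03 (adjusted p = 0.000227). Gfpt1, the rate-limiting enzyme of hexosamine synthesis, rose by 0.41, Alg2, a mannosyltransferase, rose by 0.34, and Dpagt1, the enzyme of the first step of N-glycosylation, fell by 0.21. Under bOHB 0 of 12 were called by edgeR, and 0 had an unadjusted p below 0.05.

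Other acetylcholine receptors and acetylcholine handling genes were mostly not expressed, with 8 of 20 tested. Under butyrate 6 of the 8 rose and 0 fell by edgeR, beside 33.1% and 33.4% of all genes. A gene near 0 in controls passes the filter only through libraries where it is high, and it cannot then be called lower. The filter thus sets part of this count, and no excess of rises is read from it. Chrna7, a neuronal receptor subunit, rose from 1.28, 1.54 and 1.23 CPM to 4.26, 3.43 and 3.57 CPM (1.47, adjusted p = 4.71e-07, edgeR), and Chrm4, a muscarinic receptor, rose from at most 0.0440 CPM to 3.69, 3.27 and 3.12 CPM. Chrna7 and Chrm4 moved in the direction opposite to the 6 called muscle genes in the same libraries, and Chrm4 was near 0 in controls and could only rise. Under bOHB 0 of 8 were called by edgeR, and 1 had an unadjusted p below 0.05.

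**Figure D4:**
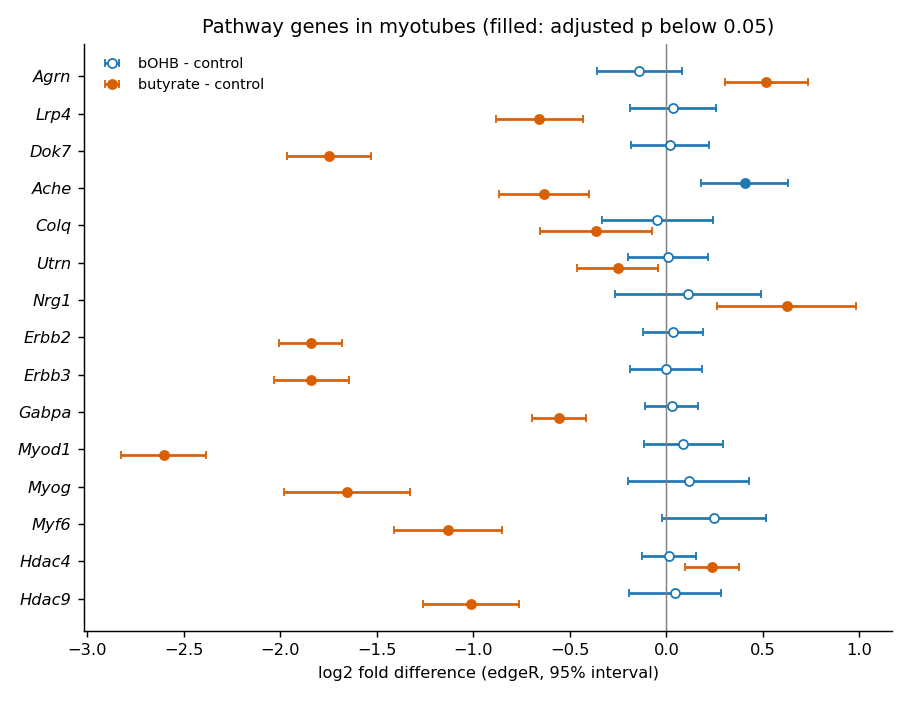
log2 fold differences with 95% intervals for 15 pathway genes in myotubes, from edgeR, for bOHB minus control and butyrate minus control. Filled points passed an adjusted p of 0.05. Under butyrate Myod1 (-2.60), Erbb2 and Erbb3 (-1.84) and Dok7 (-1.75) lie farthest to the left and Agrn, Nrg1 and Hdac4 lie to the right, while under bOHB Ache alone is filled, a call that some alternative fits lost.

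Over all 36 libraries the patterns of the 7 genes were dominated by their presence in myotubes. The genes most like each one in Pearson correlation of log2 CPM, as a description over 36 libraries that share cell types, were Chrnd, Mymk and Lmod2 for Chrna1 (r = 0.994 each), Tnnt3, Tnni1 and Myom2 for Chrnd (r from 0.995 to 0.996), and Myom2, Mylk4 and Klhl40 for Chrng (r = 0.994 to 0.995). For Musk they were Des, A330094K24Rik and Filip1 (r = 0.990 to 0.991), and for Chrne Hhatl, 2310043L19Rik and Gm40038 (r = 0.992 each). Chrnb1 (Fgfbp1, Cnn3 and Svil, r = 0.980 to 0.982) and Rapsn (Inpp4b, Ak8 and AC141882.2, r = 0.975 to 0.976) had lower values, and these 2 genes are also those with a level outside muscle. Within the 9 myotube libraries, Chrna1 had r = 0.989 with Musk and 0.983 with Chrnd, and Chrne had the lowest values, 0.625 to 0.790 with the other 6.

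Outside myotubes the members were low, and Chrnb1 and Rapsn were the exceptions. Chrna1 had 2 to 12 counts in the 9 adipocyte libraries and 3 to 17 in the 9 hepatocyte libraries. Chrnd, Chrne and Chrng had at most 5 counts in any adipocyte or hepatocyte library. Musk had 1 to 9 counts in adipocytes, at most 0.405 CPM, and 0 to 2 in hepatocytes. A level of 3 counts in 1 library is about 0.13 CPM in the adipocyte controls and covers counting error only.

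Chrnb1 was expressed in hepatocytes. It had 415, 403 and 453 counts in controls, which are 26.0, 24.8 and 26.8 CPM. This is 15.5% to 16.8% of the myotube control mean, while the summed myotube markers in those libraries were at 0.0947% to 0.0978% of theirs. Butyrate lowered it to 253, 281 and 251 counts (13.4, 13.9 and 15.1 CPM), a log2 fold change of -0.87 ± 0.12 (adjusted p = 8.48e-08, edgeR), and bOHB left it at 496, 522 and 471 counts (26.1, 27.5 and 27.5 CPM). The butyrate libraries did not overlap with the others, against 68.5% of all genes without overlap with control and 67% with bOHB. It was the only one of the 7 genes that edgeR called there, while DESeq2 also called Chrna1 (3 to 17 counts), limma-voom called 1, and 2 had an unadjusted p below 0.05 in edgeR, against 63.5% of all genes called and 32.4% called lower. Butyrate minus bOHB in hepatocytes was -0.94 ± 0.11 (adjusted p = 1.83e-08, edgeR), again with 1 of 7 called, against 63.5% of all genes. Zbtb4, which ends 12 bases from Chrnb1 on the opposite strand, also fell in hepatocytes (-1.04, adjusted p = 2.18e-13) and not in myotubes (-0.11, adjusted p = 0.179), while Fgf11, which lies 124 bases away on the same strand, rose in hepatocytes (4.35, adjusted p = 5.46e-11) and in myotubes (0.49, adjusted p = 0.000408). In macrophages Zbtb4 fell (-0.93, adjusted p = 7.12e-13) and Fgf11 rose (4.13, adjusted p = 8.61e-19), while Chrnb1 was at 0.33 (adjusted p = 0.304, edgeR). In adipocytes Zbtb4 was at -0.03 (adjusted p = 0.714), Fgf11 rose by 3.25 and Chrnb1 was at 0.24 (adjusted p = 0.351, edgeR). Zbtb4 had 72.5 CPM in macrophage controls and Chrnb1 0.989 CPM. The part of either neighbour in the Chrnb1 value was not tested.

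Rapsn was expressed in macrophages. It had 87, 87 and 76 counts in controls (3.68, 4.38 and 3.28 CPM), which are 5.60% to 7.47% of the myotube control mean, while the summed myotube markers there were at 0.0207% to 0.0473% of theirs. Butyrate lowered Rapsn to 52, 58 and 67 counts (2.26, 2.26 and 2.83 CPM), without overlap with control (against 72.2% of all genes). The log2 fold change of Rapsn was -0.62 ± 0.15 (adjusted p = 0.000874, edgeR). Under bOHB it had 81, 70 and 66 counts. Gm13778, the antisense neighbour, had at most 1 count in any macrophage library. In adipocytes and hepatocytes Rapsn had at most 4 counts.

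In macrophages 5 of the 7 genes were called under butyrate, Rapsn lower and Chrna1, Chrnd, Chrng and Musk higher, against 65.0% of all genes called, 33.2% lower and 31.9% higher. The 4 that were called higher did so on few counts. Chrna1 had 7, 14 and 13 counts in controls and 15, 34 and 106 under butyrate, Chrnd 0, 4 and 0 against 4, 4 and 19, Chrng 0, 1 and 1 against 1, 7 and 14, and Musk 1, 0 and 0 against 2, 4 and 5. Butyrate replicate 3 was the highest library for each of the 4 genes. In that library the summed myotube markers stood at 0.227% of the myotube control mean. Butyrate replicates 1 and 2 were at 0.0676% and 0.0827%, and the control and bOHB libraries at 0.0207% to 0.0527%. All 10 myotube markers were called higher under butyrate in macrophages, against 31.9% of all genes. In butyrate replicate 3, Chrna1, Chrnd, Chrng and Musk stood at 0.217%, 0.289%, 0.157% and 0.153% of their myotube control means, and Rapsn at 4.83%. The part of the muscle transcripts in these calls was not tested.

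Without that library 2 of the 7 genes were called in macrophages, Chrna1 at a log2 fold change of 0.99 (adjusted p = 0.0362) against 2.06 with it, and Rapsn at -0.71 (adjusted p = 0.000809). Butyrate against bOHB in macrophages gave 4 of 7 called, against 64.7% of all genes, with Chrna1, Chrnd and Chrng higher and Rapsn lower (-0.45 ± 0.16, adjusted p = 0.0147). Without butyrate replicate 3 it gave 1, Rapsn. bOHB against control gave 0 of 7, against 0% of all genes, with 0 at an unadjusted p below 0.05 and 0 by DESeq2 and by limma-voom.

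In adipocytes none of the 7 genes was called under butyrate by edgeR, against 61.0% of all genes. At an unadjusted p below 0.05 there was 1, DESeq2 called 1 and limma-voom 0. The gene was Chrnd, with 0 counts in all controls and 1, 5 and 0 under butyrate. Chrnb1 had 28, 41 and 52 counts in controls, 46, 47 and 47 under bOHB and 38, 57 and 42 under butyrate, and the groups overlapped. Butyrate against bOHB gave 0 of 7, against 59.5% of all genes, with 0 at an unadjusted p below 0.05 and 0 by either other tool. bOHB against control gave 0 of 7 in adipocytes and 0 of 7 in hepatocytes, against 0.00652% of all genes in each, with 0 at an unadjusted p below 0.05 and 0 by either other tool.

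**Figure D5:**
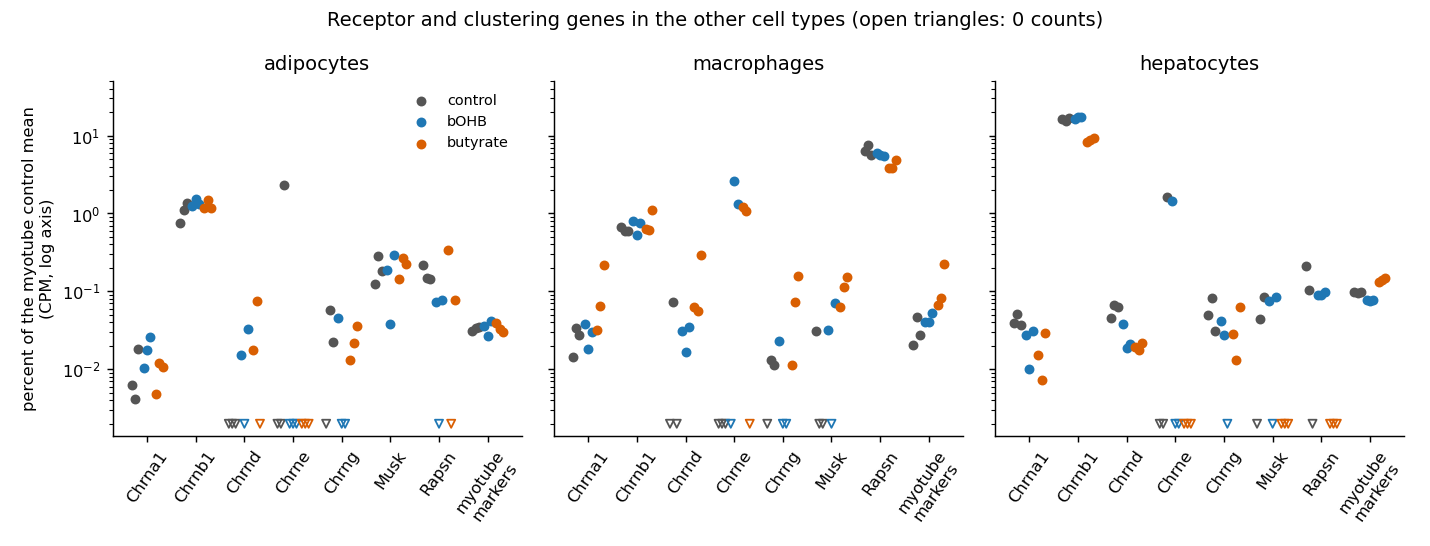
Level of each gene, and of the summed 10 myotube markers, in adipocytes, macrophages and hepatocytes, as a percent of the mean of the 3 myotube controls on a log axis. Points are libraries and open triangles mark 0 counts. Chrnb1 in hepatocytes and Rapsn in macrophages stand far above the marker sum, and macrophage butyrate replicate 3 is the highest macrophage library for Chrna1, Chrnd, Chrng, Musk and the markers.

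The effect of butyrate was compared between myotubes and each other cell type as an interaction in the same edgeR fit, for members with a mean of at least 10 counts in each of the 4 groups. Chrnb1 could be compared in 3 cell types. Its log2 fold change in myotubes was 0.65 lower than in adipocytes (-0.65 ± 0.24, adjusted p = 0.0307) and 0.74 lower than in macrophages (-0.74 ± 0.29, adjusted p = 0.0388), against 36.8% and 43.5% of all genes called, and it was 0.46 higher than in hepatocytes (0.46 ± 0.15, adjusted p = 0.00989), against 48.4%. The beta subunit gene fell more under butyrate in hepatocytes than in myotubes, which were treated in different media. The adipocyte and macrophage differences rest on 19 to 57 counts per library. The adipocyte difference was no longer called without adipocyte control replicate 1 (-0.46, adjusted p = 0.155) or 2 (-0.67, adjusted p = 0.0515), adipocyte butyrate replicate 2 (-0.54, adjusted p = 0.133) or myotube control replicate 3 (-0.61, adjusted p = 0.0504). The macrophage difference was no longer called without macrophage butyrate replicate 3 (-0.40, adjusted p = 0.326), macrophage control replicate 1, 2 or 3 (-0.79, -0.72 and -0.71, adjusted p = 0.055, 0.0741 and 0.0834) or myotube control replicate 3 (-0.70, adjusted p = 0.0572). Limma-voom called neither (adjusted p = 0.0916 and 0.162). For Rapsn the fall in myotubes and the fall in macrophages differed by -0.37 with a 95% interval of -0.74 to 0.01 (adjusted p = 0.108), and the difference was called with library totals alone (-0.45, adjusted p = 0.0427) and without macrophage control replicate 2 (-0.48, adjusted p = 0.0488). For Chrna1 the difference between myotubes and macrophages was -2.67 (adjusted p = 9.29e-05), and -1.58 without macrophage butyrate replicate 3 (adjusted p = 0.00352), the library with 106 Chrna1 counts and with the summed myotube markers at 0.227% of the myotube control mean. The other macrophage control and butyrate libraries had 7 to 34 counts, and the part of muscle transcripts in this difference was not tested.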

How the data were processed

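Libraries were made from total RNA of 4 primary cell types with random primers and sequenced as paired ends. Per the labels and the study's methods, the authors quantified transcripts with Salmon 1.2.1 against GENCODE M25 (GRCm38.p6) and summarised them to genes with tximport. The deposited table holds estimated counts per gene, not normalized, which were rounded to whole numbers here. Such counts divide reads among similar transcripts.

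Symbols came from a gene name table that matched 54094 of 54347 identifiers. Genes above 1 CPM in at least 6 libraries were tested (15340). edgeR 4.0.16 (R 4.3.3) fitted 12 group means over all 36 libraries with TMM scaling, a quasi-likelihood test and Benjamini-Hochberg adjustment over all genes tested. The standard error is the log2 fold change divided by the square root of F. Correlations used log2 CPM with a prior count of 2. Alternatives covered scaling, filters, DESeq2 1.42.0, limma-voom (limma 3.58.1), separate fits per cell type, a replicate block and leaving out each library. An exact permutation test of 3 against 3 libraries cannot go below p = 0.1 and was not used. Lengths and positions came from GENCODE M21 on the same coordinates. The code was tested on simulated data.

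The members and the gene lists were chosen with earlier results of these data known. All 7 members were named in every cell type. Pathway genes were named from a set of 16 genes, up to 4 of smallest p per direction and list, and any gene called under bOHB. Chrna7, Chrm4 and the chromosomal neighbours were chosen after their values were seen.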

Additional observations from a re-analysis of the deposited data

Results flagged for a closer look

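4 differences between cell types in the effect of butyrate passed the interaction test in edgeR. For Chrnb1 the log2 fold change in myotubes minus that in adipocytes was -0.65, minus that in macrophages -0.74, and minus that in hepatocytes 0.46, where the gene fell more than in myotubes. The Chrnb1 differences to adipocytes and macrophages were no longer called without some single libraries. For Chrna1 the log2 fold change in myotubes minus that in macrophages was -2.67, on 7 to 106 counts in the macrophage control and butyrate libraries. It was -1.58 without macrophage butyrate replicate 3, where the summed myotube markers stood at 0.227% of the myotube control mean against at most 0.0827% in the other macrophage libraries. Single outlying libraries were not tested within groups of 3.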

How the results depend on the processing

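In myotubes, 99 of 105 log2 fold changes of the 7 genes under butyrate kept their side of the threshold over the alternatives, and 6 did not, 5 of them of Chrng and 1 of Chrna1 with DESeq2. All 105 values under bOHB stayed short of the threshold. Leaving out 1 library at a time gave 5 to 6 genes called under butyrate in myotubes and 54 to 64 pathway genes. With the summed myotube markers as the reference, an alternative added after seeing the data, 3 of the 7 genes were called under butyrate (52.2% of all genes) and 2 for butyrate against bOHB (60.8%). In that fit Chrng turned to 0.13 against control and to 0.11 against bOHB, and Chrnb1 to 0.039 against bOHB. None of these 3 values passed the test, and the cause was not tested. An unadjusted P below 0.001 gave 4 genes under butyrate in myotubes in place of 6. Under bOHB 0 to 3 pathway genes were called over the alternatives in place of 1.

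In adipocytes 1 gene was called under butyrate in place of 0 with library totals alone, without a filter and with DESeq2, and 0 to 1 with single libraries left out. In hepatocytes 2 were called in place of 1 without a filter, with DESeq2 and in the separate fit of that cell type, and 1 to 2 with libraries left out. Against bOHB limma-voom called 2 there, and leaving out libraries gave 1 to 2. In macrophages an unadjusted P below 0.001 gave 2 in place of 5, and leaving out libraries gave 2 to 5. Against bOHB that threshold gave 1 in place of 4, limma-voom gave 2, and leaving out libraries gave 1 to 4. Of the 5 interaction tests limma-voom called 2 in place of 4, and leaving out single myotube libraries gave 2 to 4. The Chrnb1 differences to adipocytes and macrophages were the calls lost, also without single libraries of those cell types.

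Same-numbered libraries showed no strong shared deviation (correlations between -0.26 and 0.27). With 3 libraries per group this check cannot exclude a weak pairing. A fit with the replicate block called 6 of 7 genes under butyrate in myotubes and changed no other count of members. Low counts limit Chrne in myotubes and the members elsewhere, other than Chrnb1 in hepatocytes and Rapsn in macrophages. Of 252 group levels under other scalings or a smaller prior count, 63 moved by more than 1 SD.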
